A study of Mus musculus with 15 samples.

Results

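The EGF receptor family and its ligands were examined in 15 mouse tumours of the mammary gland that lack p53. The list of 10 genes holds the receptors Egfr, Erbb3 and Erbb4 and the ligands Areg, Ereg, Btc, Hbegf, Tgfa, Nrg1 and Epgn. Genes entered by symbol, and 9 of the 10 matched a row among the 17271 genes of the deposited table, while Erbb4 was not analysed here. The tumours belong to 4 models. There are 8 samples of 2208L, 4 of 2151R, 2 of 2225L and a single T11 tumour. All are labelled p53-NULL and of strain Balbc, so no sample has intact p53 by its label and the age of the mice is not given in the sources used here. Among titles of 2151R, replicate 3 carries NT2 and replicate 4 NT, and replicates 1 and 2 carry further codes that no label explains. In 2208L, 4 titles carry PBS, 3 carry 3day nt and 1 carries ROSEN. The samples of 2225L differ in library prefix, CP in replicate 1 and ROSEN in replicate 2. Nothing in the labels says whether the samples of a model came from separate mice, so p-values measure the spread between these samples.

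The receptors of this family are tyrosine kinases that pair when a ligand binds. Egfr binds Areg, Ereg, Btc, Hbegf, Tgfa and Epgn, which are made as membrane-bound precursors and released by proteases. Erbb3 has little kinase activity of its own, binds neuregulins such as Nrg1 and signals in pairs with Erbb2 or Egfr. In the mammary gland Areg is the ligand through which oestrogen drives duct growth, and Egfr acts mainly in the stroma and in basal cells.

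Each value is a log2 ratio to a reference for that gene, which is not stated. A gene can be compared between tumours, but one gene cannot be said to be expressed above another, and depth is unknown because the table holds no counts. A gene is called different when its Benjamini-Hochberg adjusted p-value from limma, over all 17271 genes, was under 0.05. T11 has no replicate and no test. Epithelial markers (8 of 8 in the table) had a mean of -4.41 to -3.35 in 2151R and -7.54 in T11, against 2.37 to 2.40 in 2225L and 2.10 to 2.74 in 2208L, each gene taken relative to its mean over the 15 tumours. Skeletal muscle markers stood apart in replicate 3 of 2151R (6.09) and in replicates 6 (9.16) and 8 (8.64) of 2208L, where the other tumours lay between -4.96 and 1.47. Each model and each subset of 2208L has its own range of library numbers, apart from the ROSEN libraries, so effects of model and of library range cannot be told apart. Bulk RNA has a further limit, that fewer cells of a type and less RNA per cell cannot be told apart.

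Of the 9 genes, 8 were placed on GRCm38.p6, the assembly that mm10 names, with RefSeq positions. Egfr lies on chromosome 11 from 16752203 to 16913907, Erbb3 on chromosome 10 from 128567523 to 128589635, Tgfa on chromosome 6 from 86195038 to 86275744, and Nrg1 on chromosome 8 from 31807452 to 32891609. Epgn, Ereg, Areg and Btc lie next to each other on chromosome 5, from 91027517 for the start of Epgn to 91402994 for the end of Btc, a span of 375.5 kb. Promoter windows from RefSeq were taken for 5 of the 9 genes. The 250 bases before the start are shown for Egfr and for 2 of its ligands, Areg and Btc, because these 3 genes were all higher in 2151R than in 2208L. Capitals mark matches, on either strand, to TATAAA, TGACGTCA (the cyclic AMP response element), GGGCGG (the GC box), CAGGTG (an E-box) and TGANTCA (the AP-1 site), and no 2 matches overlapped.
Egfr, chr11:16751953-16752202, plus strand: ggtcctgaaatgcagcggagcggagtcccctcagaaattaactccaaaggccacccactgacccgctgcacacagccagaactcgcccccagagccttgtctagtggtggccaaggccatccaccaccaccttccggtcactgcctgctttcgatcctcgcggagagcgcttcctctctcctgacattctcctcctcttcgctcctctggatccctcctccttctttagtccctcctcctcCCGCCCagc
Areg, chr5:91139349-91139598, plus strand: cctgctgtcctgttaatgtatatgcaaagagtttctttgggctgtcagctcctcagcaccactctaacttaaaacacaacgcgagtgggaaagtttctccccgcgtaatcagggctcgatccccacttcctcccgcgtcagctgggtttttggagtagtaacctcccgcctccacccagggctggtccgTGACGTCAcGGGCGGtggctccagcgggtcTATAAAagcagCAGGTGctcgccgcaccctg
Btc, chr5:91402995-91403244, minus strand: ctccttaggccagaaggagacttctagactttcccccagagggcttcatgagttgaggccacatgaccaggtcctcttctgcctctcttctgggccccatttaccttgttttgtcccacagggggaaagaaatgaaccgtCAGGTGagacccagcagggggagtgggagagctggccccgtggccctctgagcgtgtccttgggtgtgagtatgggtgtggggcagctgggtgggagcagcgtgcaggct

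The window of Areg held 4 of the 5 motifs, with TGACGTCA beginning 61 bases, GGGCGG 52, TATAAA 31 and CAGGTG 20 bases before the start. Among the 32851 promoters of the table, 1.55% hold TGACGTCA, 32.7% GGGCGG, 12.4% TATAAA, 17.2% CAGGTG and 6.75% TGANTCA in the same window. The window of Egfr held GGGCGG 9 bases before the start, and that of Btc held CAGGTG 110 bases before it. Tgfa had GGGCGG at 126 and 15 bases and CAGGTG at 197 bases before the start in its promoter entry. The Tgfa window, 86194972 to 86195221, runs past the gene start given above (86195038), so that entry uses a later start. Epgn had TATAAA at 86 and CAGGTG at 245 bases before its start. None of these 5 windows held TGANTCA.

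**Figure D1:**
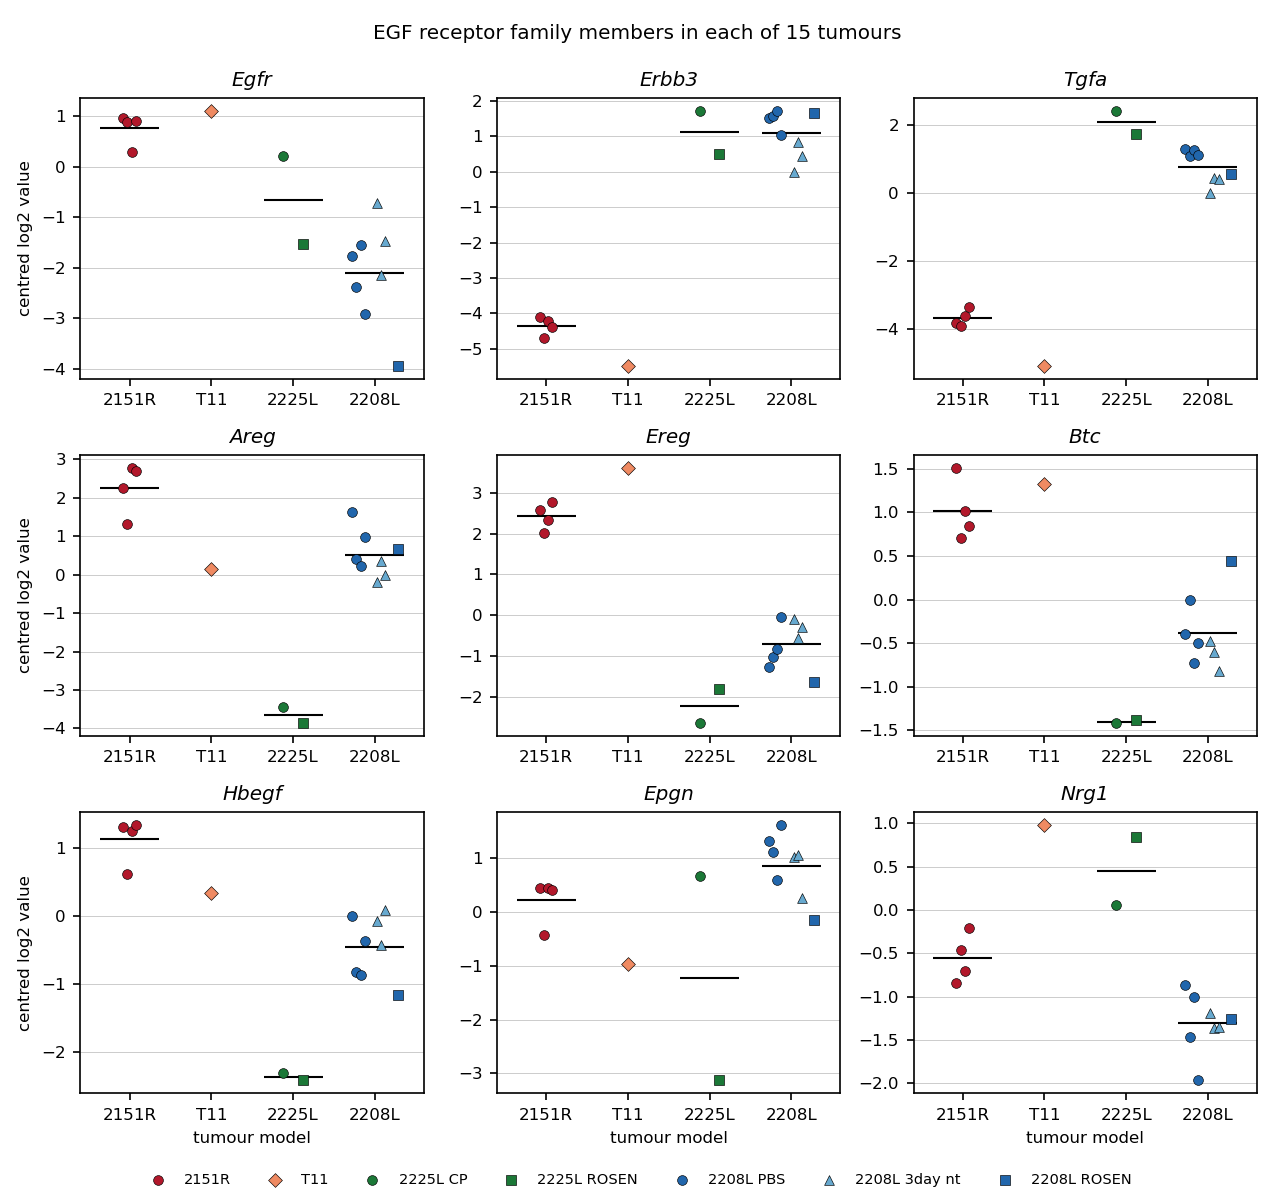
Centred log2 value (y axis) of each of the 9 genes in the 15 tumours by model (x axis); each point is a tumour, marker shapes give the subset or library prefix, and horizontal lines are model means. Erbb3 and Tgfa are low in 2151R and T11, while Areg, Ereg, Hbegf and Btc are lowest in 2225L.

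RNA was captured by its poly(A) tail, per the labels' protocols. With 2151R set against 2208L, the family was compared between a model low in epithelial markers and an epithelial one. Egfr and the ligands Ereg, Areg, Hbegf, Btc and Nrg1 were higher in 2151R, and Erbb3 and Tgfa were lower. Thus 6 of 9 were called higher and 2 lower, where 26.1% of all genes were called higher and 22.7% lower. The median absolute difference was 1.76 over the 9 genes and 0.68 over all genes. At 7 of the 9 the groups did not overlap, as at 38.8% of all genes. The genes were chosen with earlier results of these data known, so setting them beside all genes, here and below, is not a test.

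Egfr, the receptor of most of these ligands, was 0.96, 0.88, 0.30 and 0.91 in replicates 1 to 4 of 2151R, and -3.95, -1.96 and -0.72 (lowest, median and highest) in the 8 tumours of 2208L. All tumours of 2151R lay above all of 2208L, by a mean difference of 2.88 (limma adjusted p 0.000395, SE 0.51), which is 7.34-fold on the deposited scale. No source states which offset preceded the logarithm, so a fold from these values may understate the change of a weakly expressed gene.

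Erbb3, the receptor for neuregulins, showed the largest difference of the 9 genes in this comparison. It was -4.10, -4.69, -4.22 and -4.38 in 2151R and ranged from 0.00 to 1.72 with a median of 1.29 in 2208L. The difference was -5.45 (SE 0.34, limma adjusted p 2.52e-08), and 2.01% of all genes differed by as much in either direction. No value of 2151R came near the range of 2208L.

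Tgfa, a ligand of Egfr, was lower in 2151R, as Erbb3 was, while the Egfr ligands Ereg, Areg, Hbegf and Btc were higher. Its values were -3.81, -3.92, -3.63 and -3.36 in 2151R, and 0.00, 0.81 and 1.29 (lowest, median and highest) in 2208L. The groups were far apart, with a difference of -4.45 (limma adjusted p 1.15e-08, SE 0.26).

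Ereg, a ligand that can activate both Egfr and Erbb4, was 2.57, 2.02, 2.33 and 2.77 in 2151R against -1.65, -0.69 and -0.06 (lowest, median and highest) in 2208L. It had the largest rise among the ligands, 3.15 (SE 0.31, limma adjusted p 2.04e-06), with no overlap. Areg, whose promoter is shown above, was 2.27, 1.31, 2.78 and 2.71 in 2151R and -0.19, 0.37 and 1.64 in 2208L. Here replicate 2 of 2151R fell below the highest tumour of 2208L, and the difference was 1.76 (SE 0.34, limma adjusted p 0.000855).

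Hbegf, the heparin-binding ligand, was 1.31, 0.62, 1.26 and 1.34 in 2151R and -1.17, -0.39 and 0.09 in 2208L, a difference of 1.58 (limma adjusted p 0.000137, SE 0.25) without overlap. Btc was 1.51, 0.71, 1.02 and 0.84 in 2151R and -0.82, -0.48 and 0.44 in 2208L, a difference of 1.40 (limma adjusted p 0.000224, SE 0.23), also without overlap. Nrg1, the ligand of Erbb3, was -0.85, -0.46, -0.70 and -0.21 in 2151R and -1.97, -1.31 and -0.87 in 2208L. Its groups did not overlap but lay close together, with a difference of 0.75 (limma adjusted p 0.00994, SE 0.21). With PBS samples as the only ones of 2208L, Nrg1 was no longer called (0.77, limma adjusted p 0.0504). Epgn, a weak Egfr ligand of epithelia, was 0.45, -0.42, 0.45 and 0.40 in 2151R and -0.14, 1.04 and 1.61 in 2208L, overlapping ranges whose difference of -0.63 (limma adjusted p 0.358, SE 0.55) did not pass. The 95% interval of that difference, -1.81 to 0.54, still holds sizable changes either way.

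The marker lists of other cells moved with this comparison. All 8 epithelial markers were called lower in 2151R, 4 of 5 mesenchymal, 4 of 6 macrophage, 3 of 5 fibroblast and 4 of 4 endothelial markers were called higher, and 0 of 7 muscle markers were called by limma in either direction, nor did any reach an unadjusted p under 0.05. The other mesenchymal marker, Twist1, was called lower in 2151R (-0.79, limma adjusted p 0.000347). Of the basal markers 3 of 4 were called lower and 1 higher, 2 of 4 neutrophil markers were called lower, and 1 of 4 adipocyte and 1 of 4 T cell markers were called higher. The adipocyte list had a median difference of 4.11. The macrophage score ran from 0.47 to 0.82 in 2151R and from -1.38 to 0.83 in 2208L, and the fibroblast score from 0.64 to 1.80 and from -2.34 to 1.04. The part of these cells in the values of the ligands was not tested. Without the 3 tumours with high muscle scores, the difference of Egfr was 3.37, that of Erbb3 -5.79 and that of Tgfa -4.65, and all 3 were called.

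**Figure D2:**
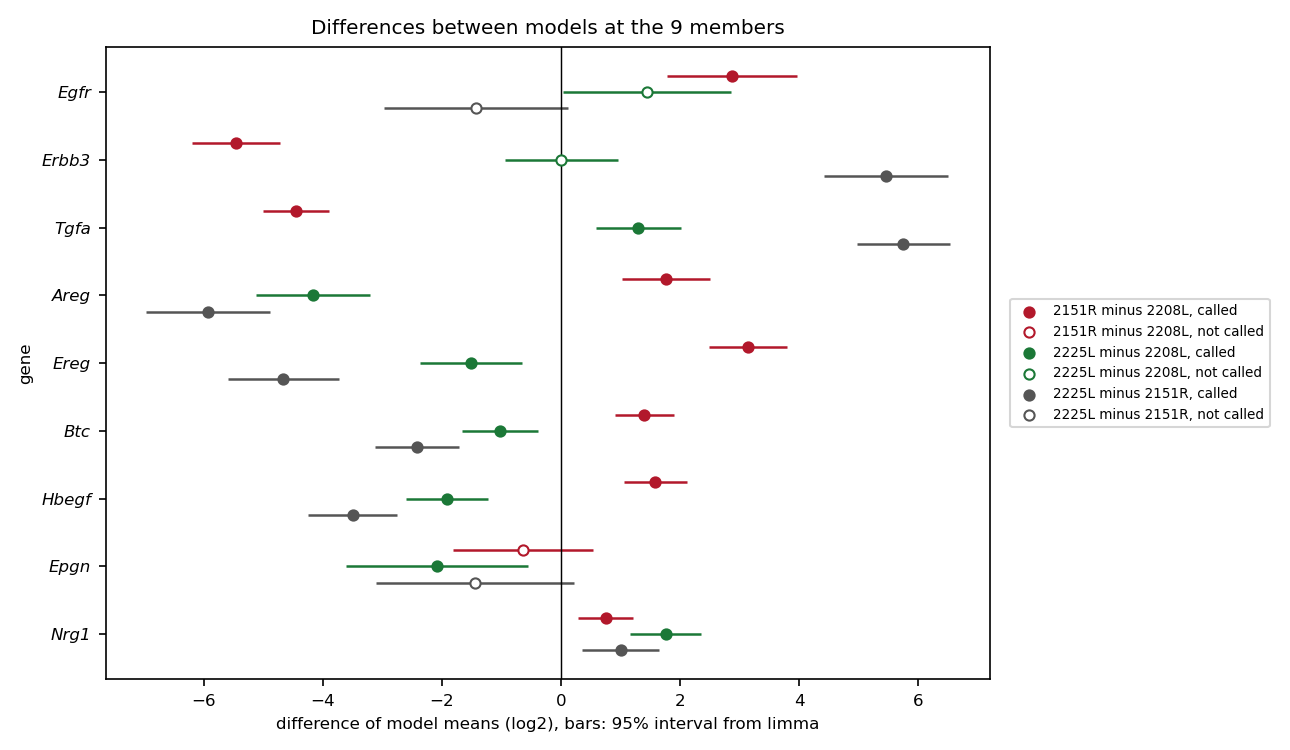
Difference of model means in log2 units (x axis) for each gene (y axis) in 3 comparisons, with 95% intervals from limma; filled points are called at an adjusted p-value under 0.05 and open points are not. Erbb3 and Tgfa lie far to the left for 2151R minus 2208L and far to the right for 2225L minus 2151R, and the intervals of Egfr and Epgn are wide wherever 2225L enters.

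The comparison of 2225L with 2208L sets 2 epithelial models side by side, and it shares the tumours of 2208L with the comparison above. The ligands Areg, Hbegf, Epgn, Ereg and Btc were lower in 2225L, and Nrg1 and Tgfa were higher. Thus 5 of 9 were called lower and 2 higher, where 17.3% of all genes were called lower and 15.6% higher. At 6 of the 9 the groups did not overlap, as at 31.7% of all genes. The receptors Erbb3 and Egfr were not called. With 2 tumours of 2225L these calls are weakly held, and several were lost when either tumour was left out, as given by gene below. A lone tumour in a group lowers the power for every gene, so such losses are not a result about these members alone.

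Areg was -3.45 and -3.86 in the tumours of 2225L, far below the lowest tumour of 2208L (-0.19). The difference of -4.17 (limma adjusted p 1.66e-05, SE 0.44) was the largest of the 9, and 2.56% of all genes differed by as much. Hbegf was -2.31 and -2.42 in 2225L, below the lowest tumour of 2208L (-1.17), with a difference of -1.91 (limma adjusted p 0.000542, SE 0.32). These 2 ligands were the most clearly reduced.

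Ereg was -2.65 and -1.82 in 2225L, below all tumours of 2208L, of which the lowest, the ROSEN sample, was -1.65. Its difference was -1.51 (SE 0.39, limma adjusted p 0.0102), and without replicate 1 of 2225L it was -1.10 and not called (limma adjusted p 0.128). Btc was -1.42 and -1.39 in 2225L, a difference of -1.02 (limma adjusted p 0.0184, SE 0.30), and the call was lost without either tumour of 2225L (limma adjusted p 0.0834 and 0.0848). Epgn was 0.67 in replicate 1 of 2225L and -3.13 in replicate 2, so the difference of -2.08 (limma adjusted p 0.0369, SE 0.70) rested on the ROSEN tumour. Without that tumour it was -0.18 and not called. The call of Epgn was also lost without replicate 2, 3, 5 or 7 of 2208L (limma adjusted p from 0.0533 to 0.0565).

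Tgfa was 2.41 and 1.73 in 2225L, above the highest tumour of 2208L (1.29). It rose by 1.30 (SE 0.33, limma adjusted p 0.00887), and without replicate 1 of 2225L the difference was 0.96 and not called (limma adjusted p 0.113). Nrg1 was 0.06 and 0.84 in 2225L and at most -0.87 in 2208L. Its difference of 1.76 (limma adjusted p 0.000352, SE 0.27) held without either tumour of 2225L.

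Erbb3 was 1.73 and 0.50 in 2225L, the first just above the highest tumour of 2208L (1.72) and the second within its range, with a difference of 0.01 and a 95% interval of -0.94 to 0.96. Egfr was 0.21 in the CP tumour of 2225L and -1.54 in the ROSEN tumour. Over all tumours its difference from 2208L was 1.45 (SE 0.65, limma adjusted p 0.108) and was not called. Within the CP libraries 2225L exceeded the mean of 7 tumours of 2208L by 2.06, and within the ROSEN libraries, with 1 tumour each, by 2.41. With the prefix as a covariate the difference was 2.19 (limma adjusted p 0.00384), a call that the pooled comparison does not make. Areg differed by -3.94 within CP and -4.54 within ROSEN, Hbegf by -1.96 and -1.25, Tgfa by 1.61 and 1.18, and Nrg1 by 1.38 and 2.10. Ereg differed by -2.06 within CP but by -0.17 within ROSEN, Epgn by -0.32 and -2.99, Btc by -0.92 and -1.83, and Erbb3 by 0.70 and -1.17.

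Among the markers, 0 of 8 epithelial ones were called by limma between 2225L and 2208L (0 at an unadjusted p under 0.05). All 4 basal markers were called higher in 2225L. Called lower there were 3 of 5 mesenchymal, 3 of 6 macrophage and all 4 neutrophil markers. The mesenchymal score was -1.68 to -1.34 in 2225L, below the lowest of 2208L (-1.30). The macrophage score was -1.35 to -0.64 in 2225L, within the range of 2208L, and the neutrophil score was -2.60 to -2.39, below the lowest of 2208L (-0.77). The part of these cells in the lower ligands was not tested.

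Between 2225L and 2151R, which both enter comparisons above, 3 of the 9 were called higher in 2225L and 4 lower, where 22.8% of all genes were called higher and 25.8% lower. At 8 of the 9 the groups did not overlap, as at 62.4% of all genes. Areg had the largest difference (-5.92, SE 0.48, limma adjusted p 5.83e-07), followed by Tgfa (5.75, SE 0.36, limma adjusted p 5.85e-08), Erbb3 (5.46, SE 0.48, limma adjusted p 1.13e-06) and Ereg (-4.66, SE 0.43, limma adjusted p 1.79e-06). Hbegf was lower by a difference of -3.50 and Btc by -2.42, and Nrg1 was higher by 1.01 (limma adjusted p 0.0143). The call of Nrg1 was lost without replicate 2 of 2225L (0.62, limma adjusted p 0.197). Egfr (-1.43, limma adjusted p 0.117) and Epgn (-1.45, limma adjusted p 0.138) did not pass. Without replicate 1 of 2225L both were called, at -2.30 and -3.35. Between these models 8 of 8 epithelial and 4 of 4 basal markers were called higher in 2225L. Called lower there were 5 of 5 mesenchymal, 5 of 6 macrophage, 3 of 5 fibroblast, 2 of 4 neutrophil, 1 of 4 endothelial and 1 of 4 T cell markers, and the part of these cells in the members' values was not tested.

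The T11 tumour was at the extreme of the 15 for Egfr, Ereg and Nrg1 (highest) and for Erbb3 and Tgfa (lowest). Egfr was 1.11 and Ereg 3.61, each above every tumour of the 3 other models. Erbb3 was -5.49 and Tgfa -5.08, each below every other tumour. Btc was 1.33, inside the range of 2151R, and Nrg1 was 0.98, the highest of all tumours. Areg was 0.16, lower than the mean of 2151R by 2.11 and inside the range of 2208L, and Hbegf was 0.33, between 2151R and 2208L. Epgn was -0.96, below all tumours of 2151R and 2208L. T11 lay outside the range of 2151R at 8 of the 9 genes, as it did at 70.7% of all genes, and outside that of 2208L at 8 of 9, where the share of all genes was 57.5%. It lay outside the range of 2225L at 8 of 9, with Epgn inside, and at 80.5% of all genes.

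By the model means, the order was T11, 2151R, 2225L and 2208L for Egfr, and 2225L, 2208L, 2151R and T11 for both Erbb3 and Tgfa. Ereg and Btc shared the order T11, 2151R, 2208L and 2225L. The ranges of neighbours overlapped between 2225L and 2208L at Egfr and Erbb3, between T11 and 2151R at Btc, between 2151R and 2208L and between 2208L and T11 at Areg, and between 2208L and 2151R and between T11 and 2225L at Epgn. All other neighbours in these orders had separate ranges, but a range of 1 or 2 tumours is a weak description of a model.

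**Figure D3:**
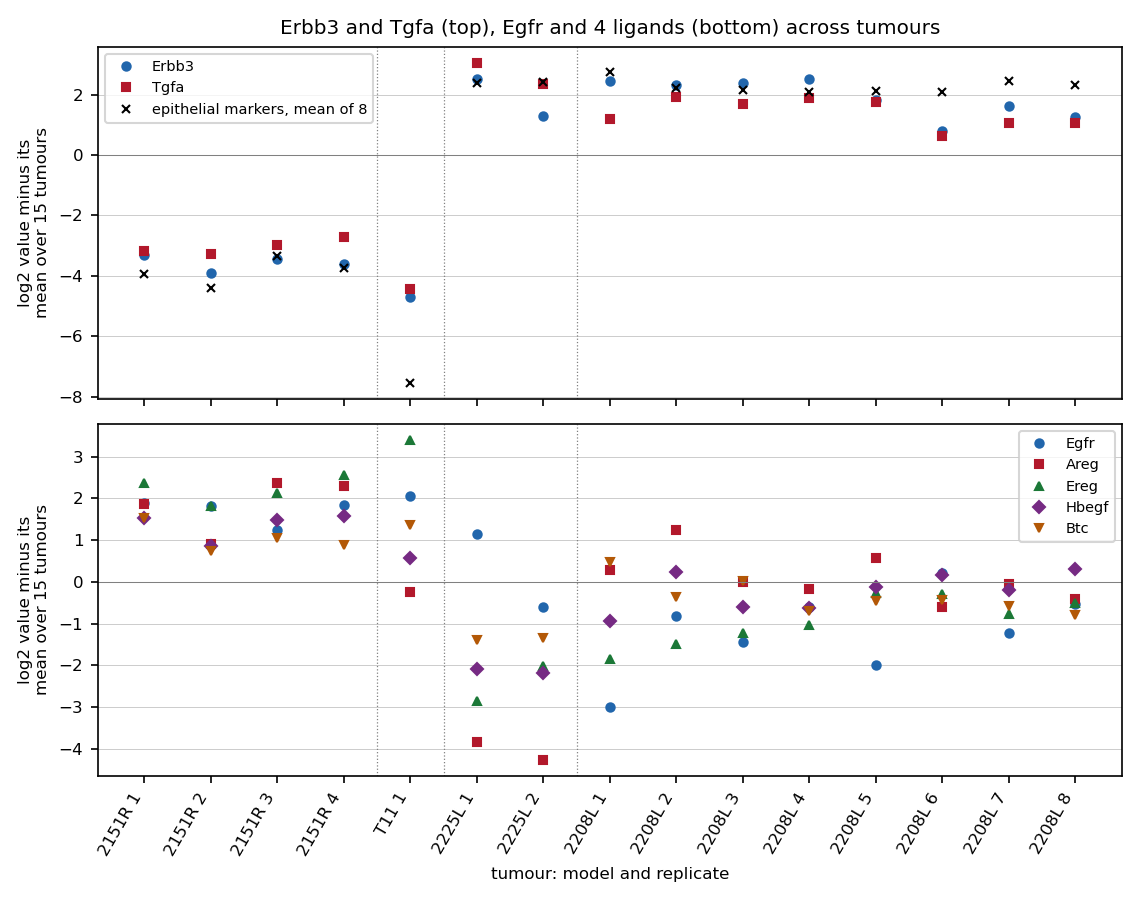
Log2 value minus the mean of the gene over 15 tumours (y axis) in each tumour (x axis, model and replicate); the upper panel shows Erbb3, Tgfa and the mean of 8 epithelial markers, the lower panel Egfr and 4 of its ligands, and dotted lines separate the models. Erbb3 and Tgfa lie within a root mean square difference of 0.62 of each other, and Areg spans the widest range in the lower panel.

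Likeness of pattern was measured as the root mean square difference over the 15 tumours after each gene was centred on its mean, for the 7 members with an SD of at least 1. Between members, Erbb3 and Tgfa were the closest, at 0.62. Predicted genes (symbols of Gm plus digits, ending in Rik or starting with LOC) were left out of the ranking. Among the other genes, Erbb3 ranked 13 by its nearness to Tgfa, and Tgfa ranked 29 by its nearness to Erbb3. The genes nearest to Erbb3 were Patj, a scaffold of epithelial polarity complexes (0.26), and Sowahb (0.35). Nearest to Tgfa were Rab11fip4 (0.45) and Celsr2, a cadherin of planar cell polarity (0.48). For Ereg they were Trerf1 (0.41) and Ly75 (0.42), for Hbegf Plaur, the urokinase receptor (0.34), and Kcnab1 (0.35), and for Areg Cdh2, which encodes N-cadherin (0.58), and Ercc6l2 (0.58). For Egfr they were Rbm12b1 (0.44) and Kalrn (0.56), and for Epgn B3gnt3 (0.61) and Mir155hg (0.62). The tumours of a model share their origin and library range, so these values largely describe the 4 models. The nearest genes depend on the measure, and most of them were different ones by Pearson's r.

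The cluster on chromosome 5 holds 4 of the ligands. Gaps between the genes were 39.4 kb from Epgn to Ereg, 45.9 kb from Ereg to Areg and 208.8 kb from Areg to Btc. In 2225L against 2208L all 4 were called lower (differences from -4.17 to -1.02), where 17.3% of all genes were. Ereg and Btc lost their calls without replicate 1 of 2225L, and Btc and Epgn lost theirs without replicate 2. In 2151R against 2208L, Ereg, Areg and Btc were called higher and Epgn was not called. Of the 10 other measured genes within 500 kb of either end, 1 was called higher and 2 lower in 2225L against 2208L, with a median difference of -1.51, and 1 was called higher and 3 lower in 2151R against 2208L, with a median of -0.42.

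**Figure D4:**
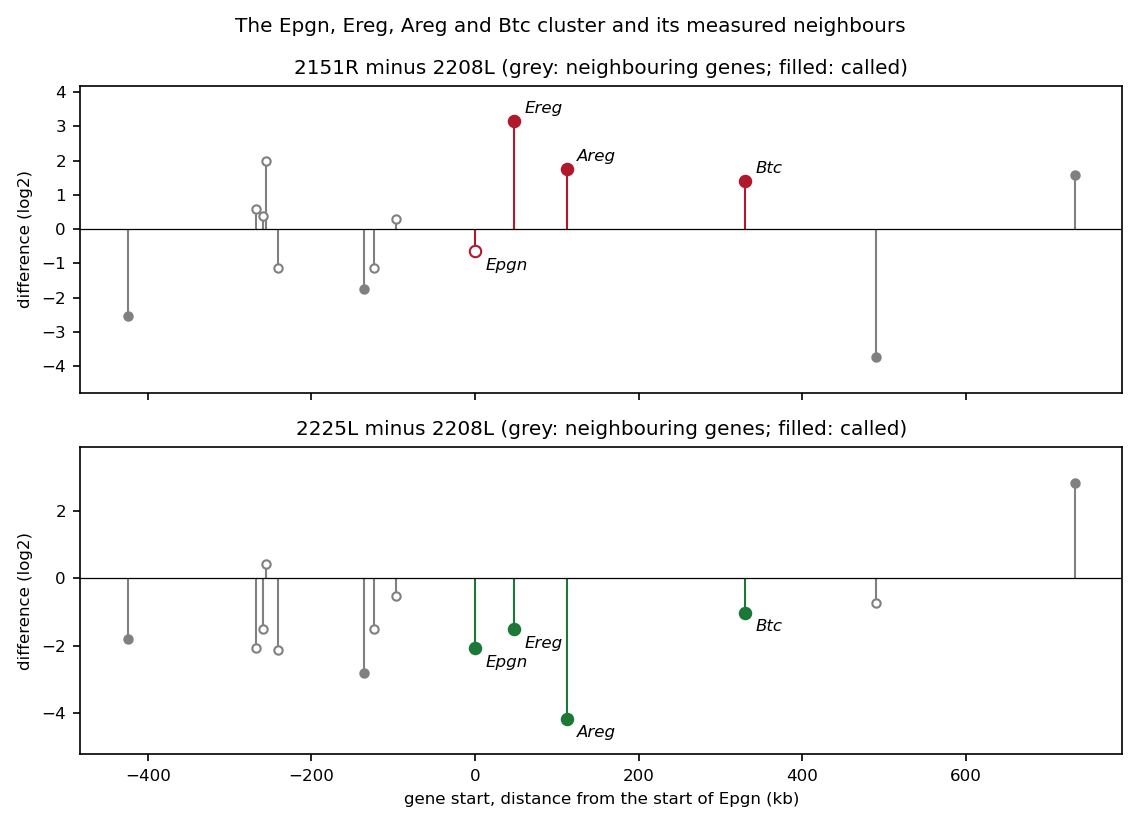
Difference in log2 units (y axis) of Epgn, Ereg, Areg, Btc (coloured) and 10 neighbouring measured genes (grey) by the distance of the gene start from that of Epgn in kb (x axis), for 2151R minus 2208L (top) and 2225L minus 2208L (bottom); filled points are called. All 4 ligands point down in the lower panel, where Areg reaches -4.17, and 3 of the 4 point up in the upper panel.

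Within 2208L, the 4 PBS tumours were compared with the 3 titled 3day nt. Erbb3 and Tgfa were higher in PBS, and the other 7 genes were not called. These 2 of 9 stand beside 17.4% of all genes called higher and 16.5% called lower, so the share of members lies near the background. Groups did not overlap at 2 of the 9 and at 44.8% of all genes. None of the 9 was lower by limma, also at an unadjusted p under 0.05. Erbb3 was 1.53, 1.59, 1.72 and 1.05 in PBS tumours and 0.00, 0.84 and 0.46 in 3day nt tumours, with no overlap and 1.04 between the means (SE 0.25, limma adjusted p 0.0206). Tgfa was 1.29, 1.07, 1.27 and 1.12 against 0.00, 0.43 and 0.41, a difference of 0.91 (limma adjusted p 0.00686, SE 0.14). Areg differed by 0.76 (limma adjusted p 0.138) and Egfr by -0.71 (limma adjusted p 0.246), with 95% intervals of -0.09 to 1.60 and -1.76 to 0.35.

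The muscle score was -4.32 to 1.47 in PBS tumours and 0.57 to 9.16 in 3day nt tumours, while the epithelial score was 2.10 to 2.23 and 2.10 to 2.44. Within the epithelial list, Grhl2, an epithelial transcription factor, was called higher in PBS (0.93), and the claudins Cldn4 (-0.84) and Cldn7 (-0.73) were called lower. All 4 neutrophil markers were called higher in PBS, with a score of 1.02 to 2.04 against -0.77 to 0.77. Of the other lists, 2 of 4 T cell, 2 of 7 muscle and 1 of 6 macrophage markers were called lower in PBS. The adipocyte list had 0 of 4 called. At an unadjusted p under 0.05 by limma, 3 of 4 adipocyte and 7 of 7 muscle markers were lower in PBS. The median difference was -4.80 for the adipocyte list and -7.29 for the muscle list. Leaving out both replicates 6 and 8 leaves a lone 3day nt tumour, which is assumed to vary like the PBS tumours. The difference was then 0.63 for Erbb3 and 0.76 for Tgfa, against 1.04 and 0.91 with all tumours. Erbb3 lost its call when replicate 2, 3, 6 or 8 of 2208L was left out alone (limma adjusted p from 0.0537 to 0.0718). Tgfa kept its call without any 1 tumour. The part of muscle RNA and of these other cells in the differences was not tested.

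Of 47 other genes of the pathway, listed by role, 45 are in the table. In 2151R against 2208L, 17 were called higher and 13 lower, with a median difference of 0.13 where that of all genes was 0.10. In 2225L against 2208L, 3 were higher and 14 lower, with a median of -0.44 against -0.04 for all genes. In 2225L against 2151R, 10 were higher and 18 lower. The shares called among all genes are those given for each comparison above. Without replicate 2 of 2225L fewer were lower than in 2208L, but the share of all genes called also changed between settings.

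**Figure D5:**
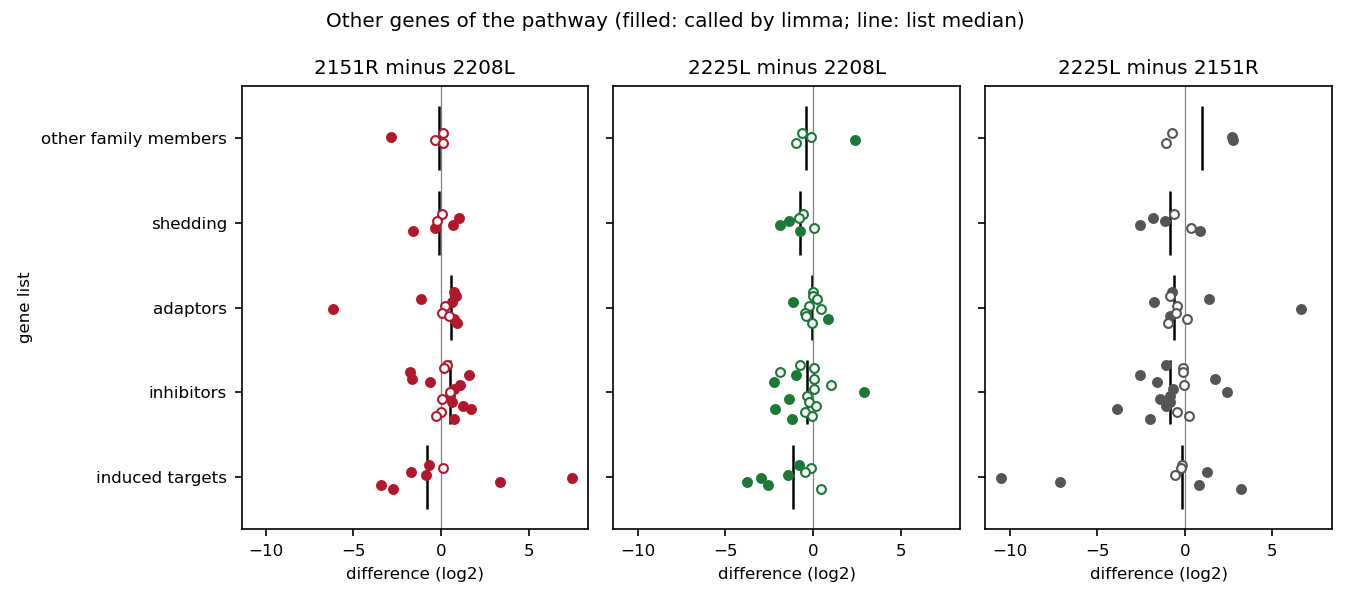
Difference in log2 units (x axis) of the 45 other pathway genes by list (y axis) in 3 comparisons; each point is a gene, filled if called, and black lines are list medians. In 2151R minus 2208L the 45 genes have a median absolute difference of 0.72, with Grb7 and Fosl1 at the extremes of the adaptors and induced targets.

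Among the other family members, Erbb2, the partner receptor of Erbb3, was -1.98, -2.45, -2.44 and -2.18 in 2151R, and 0.00, 0.56 and 1.22 (lowest, median and highest) in 2208L. It was lower in 2151R by a difference of -2.83 (limma adjusted p 4.08e-07, SE 0.23). Nrg2, a neuregulin, was 3.59 and 2.06 in 2225L and higher there than in 2208L by 2.37 (SE 0.67, limma adjusted p 0.0152), with overlapping ranges. Within 2208L, Nrg2 was higher in PBS than in 3day nt tumours by 1.90 (limma adjusted p 0.0111).

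Of the 6 genes of ligand release, 2 were higher and 2 lower in the contrast of 2151R with 2208L, and 3 were lower in 2225L than in 2208L. Adam17, the protease that releases Areg, Ereg, Hbegf, Tgfa and Epgn, was lower in 2225L by a difference of -1.34 (limma adjusted p 0.000338, SE 0.21), and Adam9 by -1.89 (SE 0.26, limma adjusted p 0.000127). Rhbdf2, which helps Adam17 mature, was lower in 2151R than in 2208L by a difference of -1.60, and Adam12 was higher by 1.05. Adam9 (-2.58) and Adam12 (-1.85) were lower in 2225L than in 2151R.

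Of 10 adaptors, 5 were higher and 2 lower in the contrast of 2151R with 2208L. Grb7, an adaptor that binds ErbB receptors, was -5.47, -5.86, -5.83 and -5.59 in 2151R and between 0.00 and 1.03 in 2208L, a difference of -6.16 (limma adjusted p 1.67e-11, SE 0.18). It was -10.39 in T11. Gab1 was lower in 2151R by a difference of -1.14. In 2225L, Gab2 was lower than in 2208L by a difference of -1.14 and Sos1, a Ras exchange factor, higher by 0.88. Against 2151R, Grb7 was higher in 2225L by 6.63 and Gab2 lower by a difference of -1.77.

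Of 17 inhibitors, 8 were higher and 3 lower in the contrast of 2151R with 2208L. Against 2208L, 2225L had 1 higher and 5 lower, and against 2151R it had 2 higher and 10 lower. Errfi1, an inhibitor of the Egfr kinase, was -1.07 and -1.42 in 2225L and between 0.61 and 1.41 in 2208L, a difference of -2.25 (limma adjusted p 1.16e-05, SE 0.23). Lrig3 was higher in 2225L than in 2208L by 2.91 (SE 0.60, limma adjusted p 0.00256). Dusp4, a phosphatase of MAP kinases, was lower in 2151R than in all 2208L tumours by a difference of -1.79, but its values split 2208L. It was 1.96 to 2.19 in PBS tumours and -0.59 to 0.51 in 3day nt tumours (limma adjusted p 0.00378), and 2151R, at -0.99 to -0.17, overlapped the latter. Spred3 was higher in 2151R than in 2208L by 1.69, and within 2208L it was higher in PBS than in 3day nt tumours by 1.49 (limma adjusted p 0.00421). Spred3 (-3.88) and Dusp5 (-2.58), a phosphatase of ERK, were lower in 2225L than in 2151R.

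Of 9 genes induced by the pathway, 8 are in the table. In 2151R, 2 were higher and 5 lower than in 2208L, and in 2225L, 5 were lower than in 2208L. Fosl1, a subunit of AP-1, was 5.73, 5.32, 5.54 and 5.42 in 2151R and -3.06, -2.59 and 0.00 (lowest, median and highest) in 2208L, a difference of 7.50 (limma adjusted p 2.8e-06, SE 0.75). In 2225L it was -2.83 and -7.15. Ier3 was lower than in 2208L in 2151R (-3.40) and in 2225L (-2.59). Hmga2 was lower in 2225L than in 2208L (-3.78) and than in 2151R (-7.13). Its value was -2.69 in the CP tumour of 2225L and -6.63 in the ROSEN tumour, and at lowest -1.98 in 2208L. The list therefore did not move in 1 direction between 2151R and 2208L. In PBS against 3day nt tumours of 2208L, 17 of the 45 pathway genes were called higher and 0 lower by limma. Of all genes, 17.4% were called higher and 16.5% lower. At an unadjusted p under 0.05, 1 of the 45 was lower. The count called higher was 7 without replicate 6 and 7 without replicate 8, given here without the share of all genes. Without both replicates 6 and 8, 0 were called higher, where 0.44% of all genes were.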

How the data were processed

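The table, as deposited, holds log2 values for 17271 genes in 15 tumours, with each gene centred on an unstated reference level. Per the submitters' processing notes, STAR, Salmon and mm10 were used, without stated roles. The normalization between samples and the offset added before the logarithm are not given in the sources used here. No counts are in the table, so depth and counting error per sample are unknown. Linear models were fitted to all genes with limma 3.58.1 in R 4.3.3, over all 15 samples for comparisons of models and over the 7 PBS and 3day nt samples within 2208L, with empirical Bayes variances without a trend, and p-values were adjusted by the Benjamini-Hochberg method over all genes. Samples were grouped by title. Members and pathway lists were chosen with earlier results of these data known. Named pathway genes were the 2 of each list with the largest absolute difference among those called in each comparison of models. Nearest genes were the 2 with the smallest root mean square difference, with predicted genes left out. Scripts were tested on simulated data. Alternatives covered scaling, sample weights, a minimum change, subsets, library prefix and each sample left out. Erbb4 was not analysed here. Promoters and positions are from RefSeq, GRCm38.p6.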

Additional observations from a re-analysis of the deposited data

Results flagged for a closer look

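Among 27 groups of values (9 genes in 2151R, 2208L and its PBS tumours), 3 held a tumour far from the others of its group. All 3 were in 2151R. Chance gives about 1 in 20 groups only if they are independent, and the PBS tumours are part of 2208L. Egfr was 0.30 in replicate 3, titled NT2, and between 0.88 and 0.96 in the other 3 tumours. That tumour also had the high muscle score of 6.09. Hbegf was 0.62 in replicate 2, titled 53ca, and between 1.26 and 1.34 in the others. Epgn was -0.42 in the same replicate and between 0.40 and 0.45 in the others. Without replicate 2 of 2151R the calls of the 9 genes against 2208L were 6 higher and 2 lower, as with all tumours.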

How the results depend on the processing

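No paired analysis was possible because no label links a tumour of a group to a tumour of another. Against 2208L, Egfr, Erbb3, Areg, Ereg, Btc, Hbegf and Tgfa in 2151R kept direction and call in all 28 alternatives, leave-one-outs included. Most counts called in alternatives, here and above, are given without the share of all genes called, which also changed between settings. A change in such a count is therefore not a result about the members or the lists alone. Pathway genes higher in 2151R than in 2208L fell from 17 to 7 with a minimum change of 1, to 7 with NT, nt and PBS samples only and to 10 with PBS samples only. In 2225L against 2208L, members lower went from 5 to 3 with quantile normalization, 1 with sample weights, 3 with 3day nt samples only and 3 with CP libraries only (added after seeing the data), and to 3 to 5 with a sample left out. Members higher went from 2 to 0 with weights and to 1 to 2 in leave-one-outs. Pathway genes there went from 3 to 1 higher with weights, and from 14 to 6 lower with weights, 9 with CP libraries only and 7 to 16 in leave-one-outs. In 2225L against 2151R, pathway genes lower went from 18 to 10 with weights. In PBS against 3day nt, members higher went from 2 to 5 with weights, 1 with a minimum change of 1, 0 without the muscle-high tumours and 1 to 2 in leave-one-outs, and members lower from 0 to 2 with weights and 0 to 1 in leave-one-outs. Pathway genes higher went from 17 to 4 with a minimum change of 1, 0 without the muscle-high tumours and 7 to 22 in leave-one-outs, and lower from 0 to 1 with medians centred, 1 with quantile normalization, 2 with weights and 0 to 1 in leave-one-outs. Erbb3 in 2225L against 2208L, not called, turned to -0.37 with quantile normalization, -0.30 with weights, -0.36 with PBS samples only and -0.29 without the muscle-high tumours, and ranged from -0.60 to 0.62 in leave-one-outs. Epgn in 2225L against 2151R turned to 0.46 with CP libraries only and ranged from -3.35 to 0.46 in leave-one-outs. Nrg1 in PBS against 3day nt, not called, turned to 0.0395 with medians centred, 0.16 with weights and 0.0365 without the muscle-high tumours, and ranged from -0.18 to 0.19 in leave-one-outs. Egfr in 2225L against 2208L, not called, was called in 5 of 25 alternatives. With Pearson's r as the measure of likeness, 3 of the 14 nearest genes were shared. The causes were not tested. An exact permutation test could not fall below 0.133 for 2225L against 2151R or 0.0571 for PBS against 3day nt. It was therefore not counted there among the alternatives. In the comparisons of 2151R and of 2225L with 2208L it was counted, by its unadjusted p-value.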
